A study of Mus musculus with 47 samples.

Results

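The 10 genes described here belong to the bone morphogenetic protein (BMP) pathway of the mouse intestine: the ligands Bmp2, Bmp4 and Bmp7, the secreted antagonist Grem1, the receptor Bmpr1a, the inhibitory Smad genes Smad6 and Smad7, and the target genes Id1, Id2 and Id3. They were chosen by symbol from the table of read counts, with earlier results of these data known. They make up 10 of the table's 24062 gene rows. All 10 were found.

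BMP ligands are secreted dimers that bind paired receptor kinases, among them the type I receptor Bmpr1a, which phosphorylate the transcription factors Smad1, Smad5 and Smad9. These join Smad4 and switch on target genes, including the Id genes, whose proteins bind E proteins and keep them off DNA, and Smad6 and Smad7, which act back on the pathway as inhibitors. In the intestine, BMP signalling is strongest towards the villus and restrains stem cell renewal, while stromal cells around the crypt base secrete antagonists such as Grem1 that keep it low there.

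RNA was sequenced from intestinal tissue and intestinal organoids, which are epithelial cultures grown from tissue, of mice labelled as 15 to 19 weeks old. Tissue came from 3 sources: normal mucosa of wild-type mice, normal mucosa of mice with the genotype APC min (Min mucosa), and intestinal adenoma of mice with that genotype. The Min allele of the tumour suppressor Apc induces intestinal adenomas, and adenoma and Min mucosa both carry it. The first 4 strain backgrounds were C57BL/6 (B6), the chromosome substitution strain CSS C57BL/6 chr5 PWD (C5), whose chromosome 5 is from PWD/Ph, the F1 of C57BL/6 and that strain (C5F1), and C57BL/6xPWD F1 (B6xPWD). All 3 tissues were sampled in these 4, and PWD/Ph (PWD) was sampled as wild-type mucosa only. This gave 13 tissue groups of 3 libraries. Organoids of genotype APC min came from B6 and C5, as control or treated with 5-aza-cytidine (AZA), a cytidine analogue that traps DNA methyltransferases, in 4 groups of 2 libraries. The labels do not say whether an organoid line began from normal mucosa or adenoma, in which medium it grew, or at what dose and for how long AZA was given. None of the 10 genes lies on chromosome 5, so C5 and B6 share the C57BL/6 copy of each.

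The 39 tissue libraries held 2726505 to 20070696 counts assigned to genes, and the 8 organoid libraries 4389898 to 8373764. The ribosomal precursor Rn45s took 16.4 to 72.7% of them in tissue and 0.760 to 1.61% in organoids, so the depth left for other genes varied between tissue libraries. Apc was read at 97.5 to 183.9 CPM (counts scaled to library size) in tissue and at 224.7 to 309.7 CPM in organoids. Tissue and organoids were scaled separately here, so these 2 ranges cannot be set against each other. The Min allele is a point mutation, so these counts check no genotype label. As a check of the adenoma label, 5 of 5 Wnt target genes (Notum, Axin2, Nkd1, Lgr5, Prox1) were higher in adenoma, and their summed level was 99.9 to 504.4 CPM there against 49.7 to 80.3 CPM in Min mucosa. No label says that replicates came from separate animals or cultures. The p-values here therefore measure how far these libraries spread, which may be technical variation.

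Promoter sequence from RefSeq (build GRCm38/mm10) was at hand for 6 of the 10 genes: Grem1, Id3, Smad6, Id2, Bmpr1a and Bmp4. Those of Id1, Bmp2, Bmp7 and Smad7 are not shown. The windows run from 250 bases before the start of transcription to 30 after it, and 4 are printed, 1 for the antagonist, 1 for an inhibitory Smad and 2 for the Id genes on which the adenoma comparison turns. They lie on the minus strand at chr2:113758619-113758898 (Grem1), chr9:64022030-64022309 (Smad6) and chr12:25096063-25096342 (Id2), and on the plus strand at chr4:136143572-136143851 (Id3). The starts used are those of RefSeq. The windows of Id2, Id3 and Bmpr1a lie within the gene spans given below, which come from another annotation, GENCODE M21. Capitals mark either of 2 motifs that Smad complexes are known to bind, GTCTAGAC, the palindromic Smad binding element, and GGCGCC, a GC-rich palindrome. Both read alike on either strand and do not overlap here.
Grem1: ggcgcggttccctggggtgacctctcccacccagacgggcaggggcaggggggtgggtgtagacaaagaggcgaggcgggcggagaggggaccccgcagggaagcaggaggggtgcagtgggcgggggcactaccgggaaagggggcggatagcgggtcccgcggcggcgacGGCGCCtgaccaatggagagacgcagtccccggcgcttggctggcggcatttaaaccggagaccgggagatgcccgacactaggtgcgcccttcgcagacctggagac
Smad6: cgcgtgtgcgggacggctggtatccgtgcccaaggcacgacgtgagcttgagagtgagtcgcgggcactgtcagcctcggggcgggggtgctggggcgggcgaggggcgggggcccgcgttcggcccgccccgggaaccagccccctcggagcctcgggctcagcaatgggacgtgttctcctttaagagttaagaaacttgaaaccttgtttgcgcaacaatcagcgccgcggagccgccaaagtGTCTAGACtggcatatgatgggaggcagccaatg
Id2: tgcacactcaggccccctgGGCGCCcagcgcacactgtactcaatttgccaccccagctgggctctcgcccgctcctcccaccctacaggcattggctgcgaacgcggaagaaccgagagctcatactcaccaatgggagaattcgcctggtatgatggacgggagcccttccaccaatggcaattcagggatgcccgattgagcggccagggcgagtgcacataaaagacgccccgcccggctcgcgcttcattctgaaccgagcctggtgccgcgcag
Id3: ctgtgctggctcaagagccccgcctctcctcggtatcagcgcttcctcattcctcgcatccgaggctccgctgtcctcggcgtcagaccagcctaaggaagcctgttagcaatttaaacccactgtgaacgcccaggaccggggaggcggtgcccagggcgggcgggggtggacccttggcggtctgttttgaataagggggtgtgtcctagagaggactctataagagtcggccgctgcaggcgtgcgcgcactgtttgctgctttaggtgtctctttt
GTCTAGAC stood once in the Smad6 window and in none of the other 5, and 63 of 32851 RefSeq promoter windows of the same length hold it (0.1918%). GGCGCC stood once each in the windows of Grem1, Id2 and Bmpr1a and in none of Id3, Bmp4 and Smad6, and 3597 of all windows hold it (10.95%). These matches describe the letters in the windows, and no binding was measured.

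Levels between genes are compared per kilobase of exon, as CPM per kb averaged over the 39 tissue libraries. The Id genes Id1 and Id3, which lie at chr2:152736251-152737410 and chr4:136143497-136145755, were the most abundant, at 63.4 ± 31.1 (SD, n = 39) and 31.3 ± 11.7 CPM per kb. Bmpr1a (chr14:34410734-34503341) followed at 14.5 ± 2.22, then Smad7 (chr18:75367529-75395935) at 9.12 ± 2.27 and Id2 (chr12:25093799-25097140) at 8.30 ± 3.23 CPM per kb. Bmp2 (chr2:133552159-133562885) and Grem1 (chr2:113746164-113758646) had 6.17 ± 1.99 and 6.08 ± 3.42 CPM per kb. The lowest were Smad6 (chr9:63953076-64022059) at 4.17 ± 1.53, Bmp4 (chr14:46383520-46390669) at 3.83 ± 1.42 and Bmp7 (chr2:172868012-172940321) at 3.57 ± 2.17 CPM per kb. Ranges over libraries overlapped between all neighbours in this order. Exons of Bmp4 overlap those of Gm15217, and exons of Bmpr1a those of the antisense gene Gm17110. The strand setting of the counting is not given in the sources used here, so reads from these pairs could not be told apart.

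Ranked by mean CPM over the 13 tissue groups, B6 adenoma had the highest level of 6 of the 10 genes. The share of all genes with their highest mean in that group was not counted. The means of B6 adenoma were 14.5 ± 3.27 CPM for Bmp4, 37.1 ± 3.93 for Bmp7, 43.7 ± 18.3 for Grem1, 57.6 ± 9.79 for Smad7, 38.1 ± 11.9 for Id2 and 109.2 ± 1.60 for Id3 (SD, n = 3). The order ran from there down to C5F1 Min mucosa for Bmp7 (6.46 ± 3.07 CPM), Id2 (12.4 ± 2.25) and Id3 (34.4 ± 7.06). Id1 also had its lowest mean in C5F1 Min mucosa, 33 ± 11.1 CPM, and its highest in B6xPWD adenoma, 125.6 ± 75.9 CPM. Bmpr1a had its lowest mean in B6 adenoma, 71.0 ± 4.54 CPM, and its highest in B6xPWD Min mucosa, 106.4 ± 9.11 CPM. Between neighbouring groups in these orders, 12 pairs per gene, the libraries nearly always overlapped. The exceptions were 2 pairs of Bmp7 (B6 adenoma above C5F1 adenoma, and C5 adenoma above B6xPWD Min mucosa) and 1 pair each of Bmpr1a (B6 Min mucosa above B6 adenoma), Id1 (B6 Min mucosa above C5F1 Min mucosa) and Id3 (B6 adenoma above B6 wild-type mucosa).

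**Figure D1:**
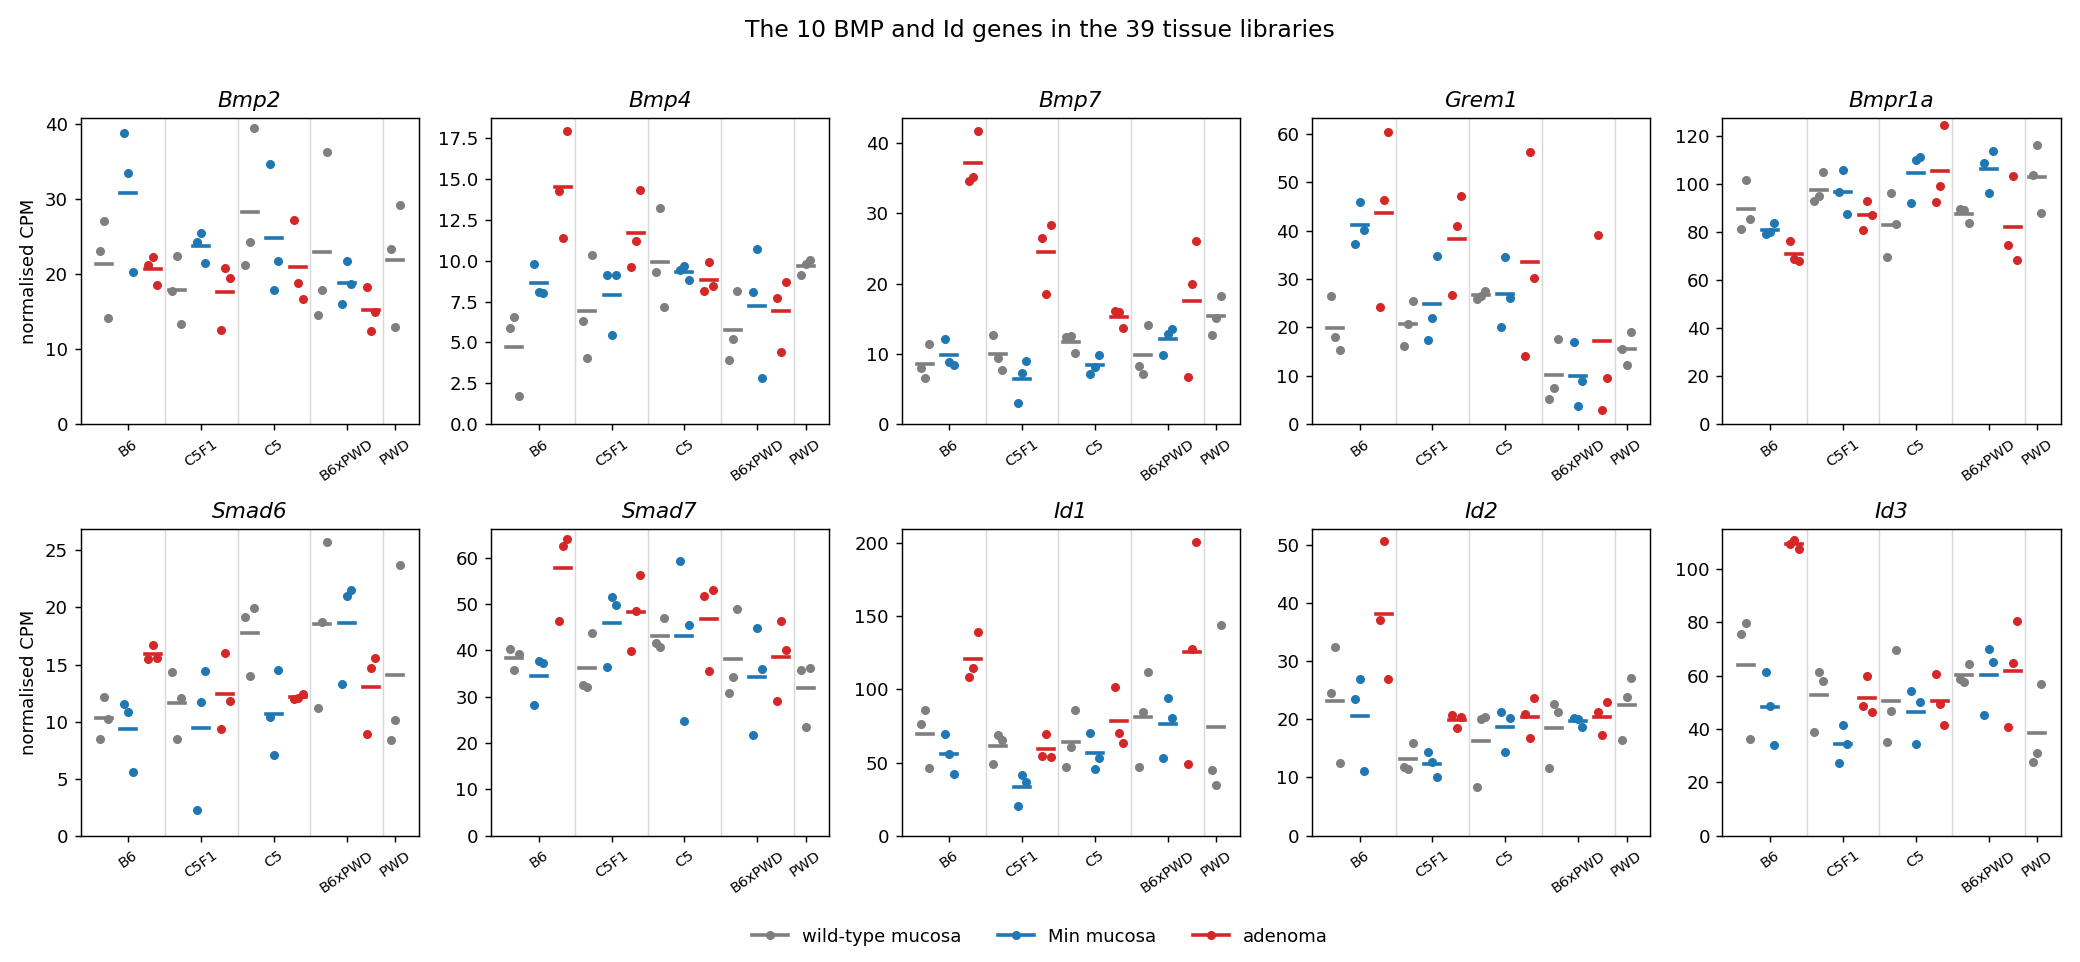
Normalised CPM (vertical axis, linear from 0) of each of the 10 genes in the 39 tissue libraries, grouped by background. Each point is a library and each bar the mean of 3; the 3 red points of B6 adenoma stand at 34.5 to 41.6 CPM for Bmp7 and at 108 to 111 CPM for Id3, above all other tissue libraries of those genes.

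Adenoma was set against Min mucosa to ask what differs between tumour tissue and uninvolved mucosa of the same genotype. Whether both tissues came from matched stretches of the intestine was not tested. As the mean over the 4 backgrounds, the ligand gene Bmp7 and all 3 Id genes rose in adenoma. No gene of the 10 fell past the threshold. These 4 of 10 calls (edgeR's quasi-likelihood test, Benjamini-Hochberg adjusted p under 0.05 over 13657 genes) stand beside 45.2% of all genes called, 23.7% higher and 21.5% lower. The share is near that of all genes. The median log2 change was 0.36 over the 10 genes and 0.01 over all genes.

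Bmp7, a ligand best known for its part in kidney development, was the 1 ligand called. In Min mucosa its level was 3.04 CPM at the lowest, 8.95 at the median and 13.6 at the highest (12 libraries), and in adenoma 6.69, 23.0 and 41.6 CPM (12 libraries). The 2 sets overlapped, since 1 adenoma library of B6xPWD lay among the mucosa libraries. The change was 1.23 ± 0.15 on the log2 scale (SE, 2.35-fold, adjusted p = 7.63e-08), and it was called without each library in turn, at 1.11 to 1.31.

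Bmp2 and Bmp4, close relatives that signal through Bmpr1a, did not pass the test. Bmp2 had a median of 21.8 CPM (16.1 to 38.8) in Min mucosa and 18.7 CPM (12.4 to 27.3) in adenoma, a log2 difference of -0.37 ± 0.16 (edgeR's quasi-likelihood test, adjusted p = 0.0566). For Bmp4 the medians were 8.98 CPM (2.81 to 10.7) and 9.75 CPM (4.45 to 17.9), a difference of 0.29 ± 0.17 (adjusted p = 0.168). The 2 ligands thus lay on opposite sides of 0, and both ranges overlapped widely.

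The target genes moved together in the mean over backgrounds, but unequally between backgrounds. Id1, a dominant-negative partner of E proteins, had 20.5, 53.2 and 94.3 CPM as lowest, median and highest value in Min mucosa and 48.9, 85.8 and 201 CPM in adenoma. It rose by 0.78 ± 0.21 (1.71-fold, edgeR adjusted p = 0.00255). Id3 had 27.4, 47 and 70.1 CPM in Min mucosa and 40.6, 60.3 and 111 CPM in adenoma, and rose by 0.48 ± 0.14 (1.39-fold, edgeR adjusted p = 0.00713). Id2 had 9.98, 19.3 and 27.0 CPM against 16.7, 21.1 and 50.6 CPM, and rose by 0.44 ± 0.15 (1.36-fold, edgeR adjusted p = 0.0173). Each Id gene had adenoma libraries within the mucosa range. The Id2 call was lost without C5F1 Min mucosa replicate 3, at 0.38 with an adjusted p of 0.0583.

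Antagonist, receptor and inhibitors showed smaller differences or wider spread. Grem1, which binds BMP2 and BMP4 and blocks them, had a median of 24 CPM (3.74 to 45.9) in Min mucosa and 34.6 CPM (2.90 to 60.4) in adenoma, and its difference of 0.43 ± 0.26 was not called (edgeR, adjusted p = 0.186). Bmpr1a differed by -0.17 ± 0.08 (edgeR, adjusted p = 0.0591), with 79.3 to 114 CPM in Min mucosa and 67.9 to 125 CPM in adenoma. Smad6 and Smad7, which block receptors or Smad1 in the cell, differed by 0.16 ± 0.18 and 0.27 ± 0.13 (edgeR, adjusted p = 0.494 and 0.0875).

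Same-numbered adenoma and Min mucosa libraries deviated together from their group means in 12 of 12 pairs (correlation 0.13 to 0.51). With 3 libraries per group these values are not independent. Same-numbered pairs with wild-type mucosa, which is from other mice, spanned -0.295 to 0.306. The numbers thus may not mark animals, and the pairing is an assumption read from these data. On that assumption, the fit with the replicate number as a block within each background is given beside these values. It called 8 of the 10 genes in the mean over backgrounds, beside 52.3% of all genes. To the 4 above it added Bmp2 (-0.36, adjusted p = 0.00583), Bmpr1a (-0.18, adjusted p = 0.0497), Grem1 (0.35, adjusted p = 0.0396) and Smad7 (0.29, adjusted p = 0.00235), all by edgeR's quasi-likelihood test. With the pairing, then, 6 of the genes were higher in adenoma and 2 lower, and Bmp4 and Smad6 were not called.

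**Figure D2:**
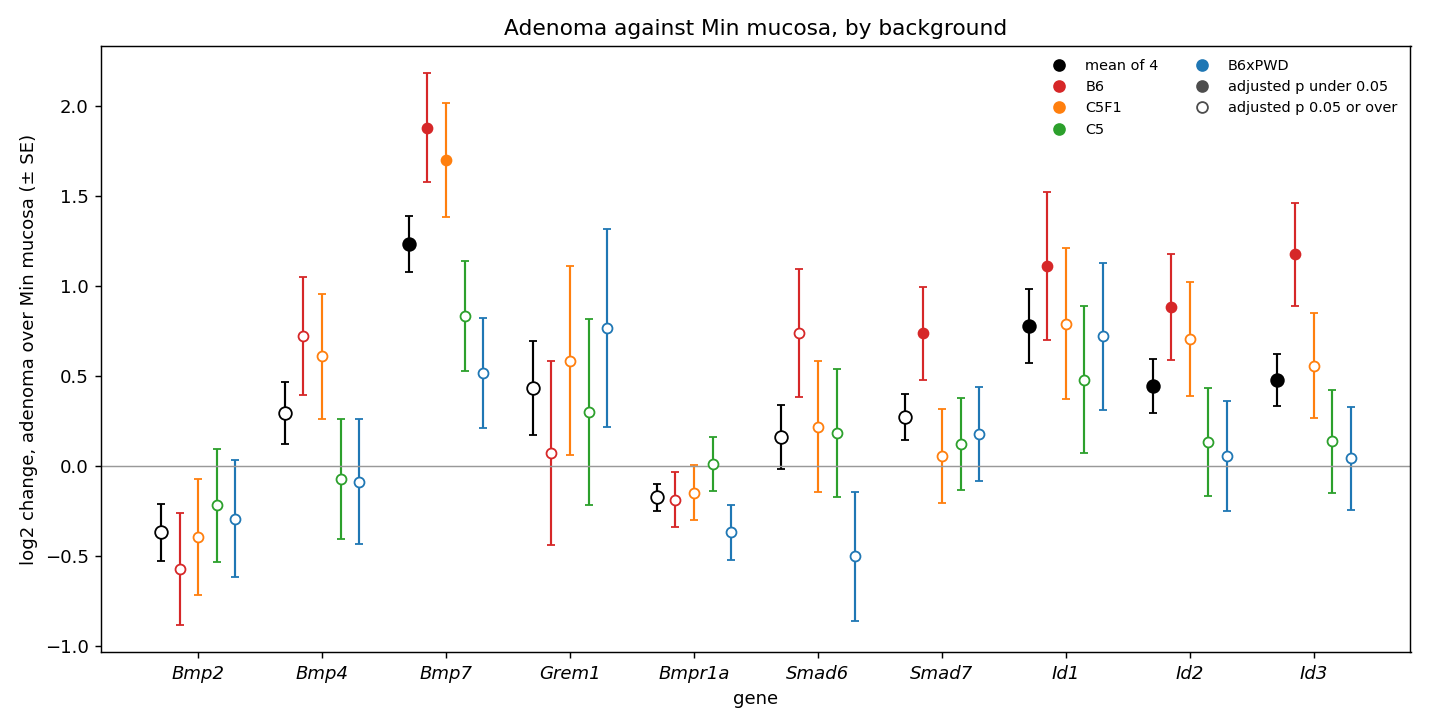
Log2 change of adenoma over Min mucosa (vertical axis, point and ± SE) for the 10 genes (horizontal axis), as the mean of 4 backgrounds in black and in each background in colour. Filled points passed an adjusted p under 0.05 by edgeR's quasi-likelihood test; Bmp7 runs from 0.52 in B6xPWD to 1.88 in B6, and the Id3 points from 0.04 to 1.18.

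In B6 the ligand Bmp7, the inhibitor Smad7 and the 3 Id genes rose. Outside the pathway, Gata4 read 0, 0.137 and 0.875 CPM in B6 Min mucosa and 25.4, 22.8 and 1.07 CPM in B6 adenoma. Whether these tissues came from the same stretch of intestine was not tested. Bmp7 stood at 12.1, 8.90 and 8.40 CPM in the 3 Min mucosa libraries and at 34.5, 35.2 and 41.6 CPM in the 3 adenoma libraries. Id3 stood at 61.4, 48.7 and 34.1 CPM in Min mucosa and at 109, 111 and 108 CPM in adenoma. For both genes every adenoma library was above every mucosa library, and Id3 differed little between the adenomas. Bmp7 rose by 1.88 ± 0.30 (3.68-fold, adjusted p = 1.97e-05) and Id3 by 1.18 ± 0.29 (2.26-fold, adjusted p = 0.00257; edgeR), and both were called without each of the 6 libraries in turn.

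Id1 read 69.3, 55.9 and 41.8 CPM in B6 Min mucosa and 109, 115 and 139 CPM in B6 adenoma, again without overlap. Smad7 read 28.2, 37.7 and 37.3 CPM against 46.4, 62.5 and 64.0 CPM, also without overlap. Id2 read 23.4, 27.0 and 11 CPM against 37.0, 50.6 and 26.9 CPM, where the lowest adenoma library lay just below the highest mucosa library. Their changes were 1.11 ± 0.41 for Id1 (adjusted p = 0.0424), 0.74 ± 0.26 for Smad7 (adjusted p = 0.0327) and 0.88 ± 0.30 for Id2 (adjusted p = 0.0255) by edgeR's quasi-likelihood test. These made 5 of 10 genes called in B6, beside 26.7% of all genes. The calls of Id1, Smad7 and Id2 were near the threshold. Smad7 was lost without any of adenoma replicates 2 and 3 and Min mucosa replicates 1, 2 and 3 (0.61 to 0.81, adjusted p 0.0504 to 0.134), Id1 without any of adenoma replicates 1, 2 and 3 and Min mucosa replicates 2 and 3 (0.95 to 1.19, adjusted p 0.0624 to 0.148), and Id2 without any of adenoma replicates 1 and 2 and Min mucosa replicate 3 (0.59 to 0.91, adjusted p 0.0525 to 0.161).

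Smad6 read 11.6, 10.8 and 5.6 CPM in B6 Min mucosa and 15.5, 16.7 and 15.6 CPM in B6 adenoma, without overlap, and its difference of 0.74 ± 0.35 was called only with the block (0.76, adjusted p = 0.0249, against 0.123 without). The same held for Bmp2, at -0.57 ± 0.31 with an adjusted p of 0.179 without the block and at -0.56 with 0.0304 with it. With the block 36.2% of all genes were called in B6. Bmp4 read 9.81, 8.08 and 8.05 CPM in B6 Min mucosa and 14.2, 11.4 and 17.9 CPM in B6 adenoma, without overlap. Its difference of 0.72 ± 0.33 was not called (edgeR, adjusted p = 0.103), but was with only these 6 libraries in the fit (0.71, adjusted p = 0.0377). Grem1 differed by 0.07 ± 0.51 and overlapped fully, with 37.2, 45.9 and 40.1 CPM in Min mucosa and 24.2, 46.4 and 60.4 CPM in adenoma.

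In C5F1 the leading gene was again Bmp7. Bmp7 read 3.04, 7.33 and 8.99 CPM in Min mucosa and 26.5, 18.5 and 28.4 CPM in adenoma, without overlap. The lowest of these values rested on 4 counts. Bmp7 rose by 1.70 ± 0.32 (3.25-fold, edgeR adjusted p = 0.000207), and it was the 1 gene of 10 called, beside 20.5% of all genes. With the block 4 were called, beside 29.0% of all genes, by edgeR: Bmp7, Id1 (0.80, adjusted p = 0.0205, against 0.195 without the block), Id2 (0.70, 0.00594 against 0.117) and Id3 (0.55, 0.0291 against 0.190). Id1, Id2 and Id3 were each higher in all 3 adenoma libraries of C5F1 than in all 3 Min mucosa libraries: Id1 read 54.4, 69.5 and 54.1 against 20.5, 41.7 and 36.8 CPM. Bmp4 was separated likewise, and Bmp2 in the other direction, without a call for either. How many of all genes separate in this way, here or in the other backgrounds, was not counted.

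In C5, the strain with the PWD chromosome 5, none of the 10 genes was called, by edgeR or by DESeq2, beside 2.77% of all genes by edgeR; 1 gene, Bmp7, had an unadjusted p under 0.05. Bmp7 read 7.21, 8.19 and 9.84 CPM in Min mucosa and 16.1, 16 and 13.7 CPM in adenoma. These did not overlap, and the difference was 0.83 ± 0.30 (edgeR, adjusted p = 0.189). Id3 read 54.1, 34.2 and 50.2 CPM against 60.7, 49.4 and 41.5 CPM, mixed together, with a difference of 0.14 ± 0.29.

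B6xPWD had no call among the 10 by either tool, beside 16.4% of all genes by edgeR, and Bmpr1a alone had an unadjusted p under 0.05. Bmp7 read 9.82, 12.8 and 13.6 CPM in Min mucosa and 6.69, 19.9 and 26.1 CPM in adenoma, a difference of 0.52 ± 0.31 (adjusted p = 0.262). The low value belongs to adenoma replicate 1, which had the lowest Wnt target sum of the adenoma libraries, 99.9 CPM against 181.1 and 252.1 CPM in the other 2, and the highest sum of 6 immune genes, 351 CPM against 29.2 and 41.6 CPM. Without that library Bmp7 was called at 0.91 (edgeR, adjusted p = 0.0171). Id1 read 48.9 CPM in that library and 127 and 201 CPM in the other adenomas, against 53.0, 94.3 and 80.7 CPM in Min mucosa. Bmpr1a differed by -0.37 ± 0.15 (adjusted p = 0.0900), and by -0.57 with a call (adjusted p = 0.0131) without adenoma replicate 2, where it read 103 CPM against 74.6 and 68.5 CPM in the others.

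Whether the adenoma effect itself differed between backgrounds was tested as an interaction term, with B6 shared by all 3 differences. None of the 10 genes was called in any of them by edgeR or DESeq2. Of all genes 0.110% were called for C5, 0.00% for C5F1 and 0.630% for B6xPWD by edgeR, and 2, 0 and 3 of the 10 had an unadjusted p under 0.05. Those were Bmp7 and Id3 for C5 (-1.05 ± 0.43 and -1.04 ± 0.41, adjusted p = 0.377 and 0.333) and Bmp7, Id3 and Smad6 for B6xPWD (-1.36 ± 0.43, -1.14 ± 0.40 and -1.24 ± 0.50, adjusted p = 0.119, 0.195 and 0.279). With the replicate block, Id3 was called for C5 (-1.06, adjusted p = 0.0259), and Bmp7 (-1.50, 0.0283), Id2 (-0.86, 0.0431) and Id3 (-1.20, 0.0125) for B6xPWD, beside 3.0% and 3.85% of all genes. A smaller adenoma effect than in B6 was thus called for Id3 in both C5 and B6xPWD with the pairing, and for no gene without it, save Bmp7 at -1.75 (edgeR, adjusted p = 0.0249) when B6xPWD adenoma replicate 3 was left out.

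In bulk tissue, fewer cells of a type and less RNA per cell cannot be told apart, and several marker lists moved with these results. The 5 Wnt targets summed to 431 to 504 CPM in B6 adenoma, 254 to 336 in C5F1, 131 to 195 in C5 and 99.9 to 252 in B6xPWD. In the mean over backgrounds smooth muscle genes were lower in adenoma in 6 of 6 cases (summed level 39.6 to 946 against 113 to 2258 CPM), and fibroblast genes higher in 3 and lower in 1 of 8 (205 to 884 against 249 to 683 CPM). Of 6 epithelial genes 2 were lower (3989 to 7708 against 4860 to 6803 CPM), of 6 endothelial genes 1 was higher and 1 lower (21.3 to 84.2 against 25.1 to 69.9 CPM), and of 6 immune genes 1 was lower (29.2 to 351 against 37.7 to 134.9 CPM). No gene of these lists was at 0 in every adenoma library. The part of these shifts in the changes of Bmp7 and the Id genes was not tested. Enteric nerve and glia genes were lower in 2 of 4 tested. In B6 alone, fibroblast genes were higher in 3 of 8 and endothelial genes in 1 of 6. Smooth muscle genes were lower there in 3 of 6, epithelial genes in 2 of 6 (3989 to 4295 against 4860 to 6639 CPM), enteric nerve and glia genes in 2 of 4 and immune genes in 1 of 6. Gata4 was higher in every adenoma library than in every Min mucosa library in B6. The reverse held in C5F1, and the 2 tissues overlapped in C5 and B6xPWD. The part of position along the intestine in these differences was not tested.

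**Figure D3:**
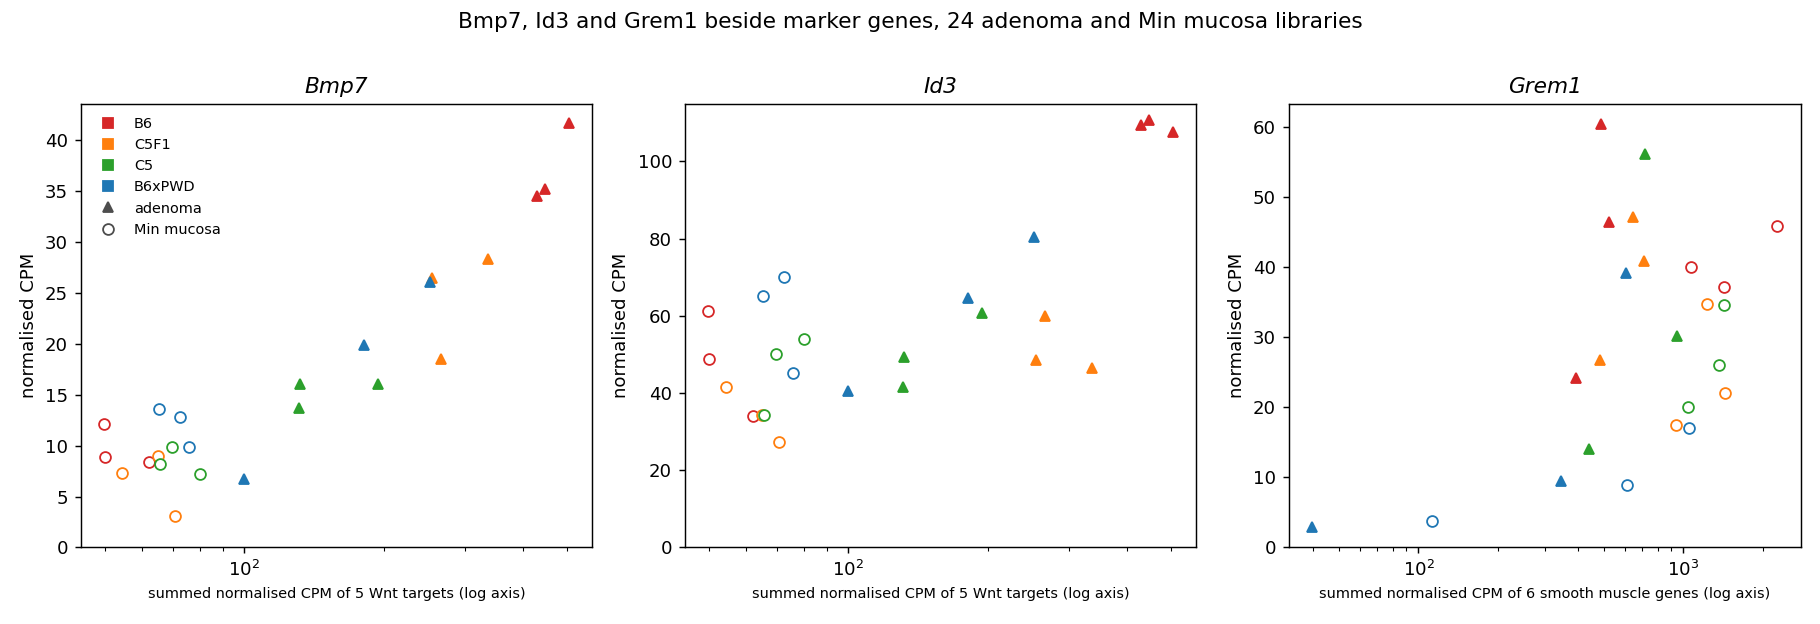
Normalised CPM of Bmp7 and Id3 (vertical axes) against the summed CPM of 5 Wnt target genes, and of Grem1 against the summed CPM of 6 smooth muscle genes (horizontal log axes), in the 24 adenoma (triangles) and Min mucosa (circles) libraries, coloured by background. The B6 adenomas lie at 431 to 504 CPM of Wnt targets, and the B6xPWD libraries with 39.6 and 113 CPM of smooth muscle genes have the lowest Grem1 values, 2.90 and 3.74 CPM.

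Beyond the 10 genes, 41 other genes of the pathway were taken by role, and 34 of them could be tested in tissue. Of these 13 were higher and 8 lower in adenoma, and 13 were not called, beside 23.7% higher and 21.5% lower over all genes. The median change was 0.05 beside 0.01 over all genes. Of 6 ligands Bmp6 and Bmp8b were higher and Bmp3, Bmp8a and Gdf10 lower. Of 6 receptors Bmpr2 and Acvr1 were higher and Acvr2a lower (-0.75 ± 0.12, 26.9 ± 8.93 against 45.5 ± 10.9 CPM, adjusted p = 8.83e-06). Among the 4 Smads that carry the signal, Smad1 (-0.46 ± 0.08) and Smad4 (-0.37 ± 0.13) fell, while Smad5 and Smad9 were not called.

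Secreted antagonists and modulators moved both ways, with 4 of 7 higher (Chrdl2, Fst, Twsg1 and Bmper) and 1 lower (Nbl1, -0.50 ± 0.13). Fst, follistatin, which binds activins and some BMPs, rose from 2.30 ± 1.15 to 6.60 ± 3.32 CPM (1.41 ± 0.28, adjusted p = 0.0001; SD, n = 12, by edgeR's quasi-likelihood test). Chrdl2 rose by 1.25 ± 0.27 at a low level of 1.09 ± 0.818 CPM in adenoma. Among the ligands, Gdf10 and Bmp8a fell by 1.16 and 0.72 on the log2 scale at levels of 0.345 and 2.60 CPM in adenoma, and Bmp3 by 0.63. Of the pathway's other target genes, 3 of 5 rose and Id4 fell (-0.53 ± 0.15). Msx1, a homeobox gene, rose from 0.383 ± 0.322 to 3.07 ± 2.5 CPM (2.15 ± 0.28, edgeR adjusted p = 1.23e-07), and Hhex, another, by 1.18 ± 0.28 to 1.99 ± 1.62 CPM. The E proteins that Id proteins bind were higher in 3 of 3 cases, Tcf3 by 0.60 ± 0.10, Tcf4 by 0.93 ± 0.11 and Tcf12 by 0.52 ± 0.08. So Id1, Id2 and Id3 and the genes of their binding partners were called in the same direction, and the fourth Id gene in the other.

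**Figure D4:**
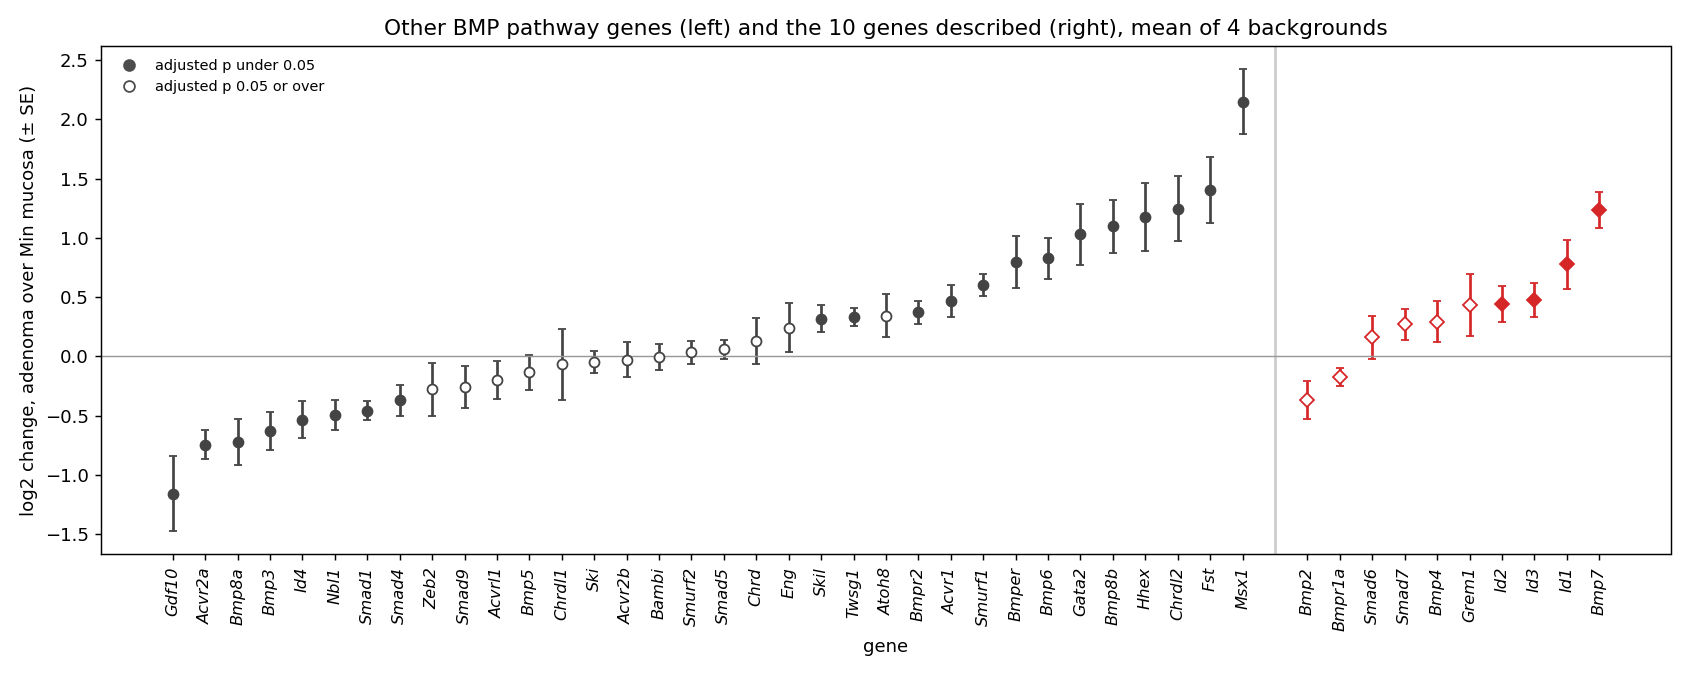
Log2 change of adenoma over Min mucosa (vertical axis, point and ± SE, mean of 4 backgrounds) for the 34 other BMP pathway genes tested (black, left) and the 10 genes described (red, right), each sorted by change. Filled points have an adjusted p under 0.05; the values run from -1.16 for Gdf10 to 2.15 for Msx1.

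The comparison of Min mucosa with wild-type mucosa asks whether the uninvolved tissue of mice with the Min allele already differs. No gene of the 10 was called by edgeR or DESeq2, beside 0.00732% of all genes by edgeR, and 1 had an unadjusted p under 0.05. That gene was Id3, with a median of 47 CPM (27.4 to 70.1) in Min mucosa and 58.3 CPM (35.3 to 79.8) in wild-type mucosa, a difference of -0.29 ± 0.14 (edgeR, adjusted p = 0.672). Id1 differed by -0.37 ± 0.21 and Bmp7 by -0.08 ± 0.16. The 95% interval for Bmp7, -0.41 to 0.25, lies below its adenoma change of 1.23. In B6, Gata4 read 0, 0.137 and 0.875 CPM in Min mucosa and 1.21, 64.1 and 78.3 CPM in wild-type mucosa. In C5F1 the order was reversed, at 38.0, 58.9 and 57.3 against 6.34, 6.10 and 13.3 CPM. The 2 tissues overlapped in C5 and B6xPWD. The part of position along the intestine in this comparison was not tested.

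Between the parental strains, PWD and B6 wild-type mucosa, again none of the 10 genes was called by edgeR or DESeq2, beside 18.7% of all genes by edgeR, and 3 had an unadjusted p under 0.05. Bmp7 read 12.7, 15.1 and 18.2 CPM in PWD and 8.0, 6.56 and 11.3 CPM in B6, without overlap (0.88 ± 0.33, adjusted p = 0.0574). Id3 read 27.4, 31.0 and 56.8 CPM in PWD and 75.6, 79.8 and 36.3 CPM in B6, where PWD replicate 3 lay above B6 replicate 3 (-0.76 ± 0.29, edgeR adjusted p = 0.0646). Without B6 replicate 3, Bmp7 (1.01, adjusted p = 0.0412) and Id3 (-1.05, adjusted p = 0.0114) were called, and without PWD replicate 3 Id3 was (-1.17, adjusted p = 0.0101). Bmp4 differed by 0.84 ± 0.36 (edgeR, adjusted p = 0.107).

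Averaged over the 3 tissues, Id2 and Id3 were lower in C5 and in C5F1 than in B6. B6xPWD, which also carries a PWD copy of chromosome 5, had no call for either by edgeR. Id3 differed there by -0.21 ± 0.17 (edgeR adjusted p = 0.348). Id2 was also lower there, just short of the threshold by edgeR (adjusted p = 0.0505) and called by DESeq2 (adjusted p = 0.0394). Id3 spanned 34.1 to 111 CPM in B6 (median 75.6), 34.2 to 69.5 CPM in C5 (median 49.4) and 27.4 to 61.4 CPM in C5F1 (median 46.5), with 9 libraries in each. Id2 spanned 11 to 50.6 CPM in B6 (median 26.9), 8.30 to 23.6 CPM in C5 (median 20.2) and 9.98 to 20.6 CPM in C5F1 (median 14.4). The ranges overlapped, and the medians were highest in B6 for both genes. The C5 and C5F1 comparisons share the B6 libraries. By tissue, Id3 averaged 109.2 CPM in B6 adenoma, 50.6 in C5 adenoma and 51.7 in C5F1 adenoma, but 48.1, 46.2 and 34.4 CPM in Min mucosa and 63.9, 50.4 and 52.7 CPM in wild-type mucosa. Id2 averaged 38.1, 20.4 and 19.8 CPM in adenoma of these backgrounds, 20.5, 18.6 and 12.4 CPM in Min mucosa and 23.1, 16.2 and 13.1 CPM in wild-type mucosa. The gap between B6 and C5 was widest in adenoma for both genes, and these tissues were not tested singly. Gata4 levels varied between these libraries. In Min mucosa it read 0, 0.137 and 0.875 CPM in B6, 56.3, 2.20 and 74.0 in C5 and 38.0, 58.9 and 57.3 in C5F1. In wild-type mucosa it read 1.21, 64.1 and 78.3 CPM in B6, 71.1, 38.3 and 0.441 in C5 and 6.34, 6.10 and 13.3 in C5F1. In adenoma its values overlapped between these backgrounds. The part of position along the intestine in any of the strain comparisons was not tested.

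In C5, Id3 was lower by a log2 difference of -0.50 ± 0.17 (adjusted p = 0.0326) and Id2 by -0.51 ± 0.17 (adjusted p = 0.0388), and Bmpr1a was higher by 0.28 ± 0.09 (1.21-fold, adjusted p = 0.0268; edgeR's quasi-likelihood test). These are 3 of 10 genes, beside 18.6% of all genes. Bmpr1a had 69.5, 96.5 and 125 CPM as lowest, median and highest value in C5 and 67.9, 80.0 and 102 CPM in B6. Each of the 3 calls was lost without some of the 18 libraries. Bmpr1a was lost without any of 6 (B6 adenoma 2 and 3, B6 wild-type 1, C5 adenoma 3, C5 Min mucosa 3 and C5 wild-type 2; adjusted p 0.0509 to 0.0944). Id2 was lost without any of 9 (B6 adenoma 2, B6 Min mucosa 1 and 2, B6 wild-type 1 and 2, C5 adenoma 1 and 2, C5 Min mucosa 2 and C5 wild-type 1; 0.0519 to 0.106). Id3 was lost without any of 10 (those of Id2 except C5 adenoma 1, with C5 adenoma 3 and C5 wild-type 2; 0.0516 to 0.0860). Among marker genes, 1 of 6 epithelial genes and 2 of 4 enteric nerve and glia genes were higher in C5 (the latter at a median of 0.77), 1 of 6 endothelial genes and 1 of 5 Wnt targets were lower, and no fibroblast, smooth muscle, immune or fat gene was called. Their part in the Id differences was not tested.

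In C5F1, Id2 was lower by a log2 difference of -0.85 ± 0.18 (1.80-fold, adjusted p = 0.00285) and Id3 by one of -0.60 ± 0.17 (1.52-fold, adjusted p = 0.0176), 2 of 10 genes beside 11.5% of all genes by edgeR. The Id2 call held without each of the 18 libraries, and that of Id3 was lost without B6 Min mucosa replicate 1 (adjusted p = 0.0543) or B6 wild-type replicate 2 (0.0525). Id1 lay on the same side, at -0.64 ± 0.24 with an adjusted p of 0.0767 by edgeR and 0.0451 by DESeq2.

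B6xPWD differed from B6 in another gene. In wild-type mucosa of B6xPWD Grem1 read 5.28, 7.52 and 17.6 CPM, in Min mucosa 17.1, 3.74 and 8.89 CPM, and in adenoma 39.1, 2.90 and 9.48 CPM. In B6 its range over the 9 libraries was 15.3 to 60.4 CPM with a median of 37.2, so 6 of the 9 B6xPWD libraries lay below every B6 library. Grem1 was lower by a log2 difference of -1.41 ± 0.32 (2.66-fold, edgeR adjusted p = 0.000872), the 1 gene of 10 called beside 34.8% of all genes, and it was called without each library in turn (-1.90 to -1.24). Grem1 is made by stromal cells, and stromal markers were lower in B6xPWD as well: fibroblast genes in 6 of 8 cases (summed level 187 to 477 against 289 to 884 CPM), endothelial genes in 4 of 6 (14.5 to 82.5 against 46.0 to 84.2 CPM) and smooth muscle genes in 2 of 6 (39.6 to 1237 against 394 to 2258 CPM). Epithelial genes were higher in 4 of 6. Their part in the Grem1 difference was not tested. Id2 differed by -0.44 ± 0.17, with an adjusted p of 0.0505 by edgeR and 0.0394 by DESeq2.

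Organoids hold epithelium without its stroma, and the comparison of control organoids with Min mucosa of the same 2 strains shows how much of each gene's signal the cultures carry. It was fitted over all 47 libraries on a joint scale. Of the 10 genes 8 were lower in control organoids, 1 was higher and 1 was not called, beside 73.8% of all genes called (41.0% lower, 32.8% higher; edgeR). The median log2 difference was -4.09 over the 10 genes and -0.14 over all genes, the latter -0.24 with another scaling. The median of the 10 lies between Id1 and Smad7 and so does not depend on the fitted value of a gene at 0 counts. Culture, its medium and the source tissue cannot be told apart here.

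Among the ligands, Bmp7 was not called, Bmp2 was lower and Bmp4 was at 0 in most organoid libraries. Bmp7 read 5.59, 12.8, 9.02 and 10.1 CPM in the 4 control organoid libraries on the joint scale and averaged 10.2 ± 2.00 CPM (n = 6) in Min mucosa, a difference of -0.12 ± 0.25 (95% interval -0.63 to 0.39, edgeR adjusted p = 0.678). Bmp2 averaged 5.31 ± 0.548 CPM (n = 4) in organoids and 31.2 ± 10.3 CPM in mucosa, a log2 difference of -2.48 ± 0.28 (adjusted p = 8.16e-10). Bmp4 had 9 counts in 1 of 4 organoid libraries and 0 in the other 3, against 379 counts over the 6 mucosa libraries, a ratio of 55.1 (95% counting interval 28.7 to 121). Grem1 had 0 counts in all 4 control organoid libraries and 1449 counts in the mucosa, where it averaged 38.0 ± 10.8 CPM, so it was at least 632-fold lower against a floor of 3 counts over the group.

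The receptor gene went the other way. Bmpr1a had 146 to 222 CPM in control organoids and 90.4 to 124 CPM in Min mucosa, without overlap, and was higher by 0.91 ± 0.13 (1.88-fold, edgeR adjusted p = 1.22e-07). The inhibitory Smads and the Id genes were far lower in the cultures. Id3 averaged 1.05 ± 0.343 CPM against 52.8 ± 12.7 CPM (-5.33 ± 0.32, adjusted p = 5.51e-17), Id1 3.42 ± 1.53 against 62.7 ± 13.7 CPM (-4.14 ± 0.39, adjusted p = 8.85e-12), and Id2 5.83 ± 1.60 against 21.9 ± 6.76 CPM (-1.88 ± 0.25, adjusted p = 2.92e-08). Smad7 averaged 2.34 ± 1.38 against 43.3 ± 13.8 CPM (-4.04 ± 0.28, adjusted p = 1.69e-15), and Smad6 had 6 counts in all against 428, a ratio of 93.4 (42.5 to 256). Among target and inhibitor genes Id2 had the smallest difference. Per kilobase, on the organoids' own scale, Id1 had 5.07 ± 2.27, Id2 4.11 ± 1.11 and Id3 1.01 ± 0.337 CPM per kb in control organoids, where Id1 and Id2 overlapped. Intervals and floors cover counting error only.

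Stromal and immune markers were near 0 in the cultures. Fibroblast genes summed to 0.721 to 3.86 CPM in control organoids and 471 to 757 CPM in Min mucosa (8 of 8 lower), smooth muscle genes to 0 to 3.47 against 1157 to 2552 CPM (6 of 6 lower, Des at 0 in every organoid library), endothelial genes to 0.823 to 2.49 against 50.7 to 77.7 CPM (6 of 6) and immune genes to 1.18 to 2.58 against 87.2 to 149.6 CPM (6 of 6, Cd79a and Cd52 at 0). Epithelial genes summed to 2744 to 2947 against 5386 to 7574 CPM, with 5 of 6 lower and a median of -1.05. The log2 differences of Id1, Id3 and Smad7, from -5.33 to -4.04, stand beside that epithelial median. Of the other BMP pathway genes 28 of 35 tested were lower and 2 higher (Acvr2a and Smurf2), with a median of -1.60. Over all genes 41.0% were lower and 32.8% higher. Among the largest were those of Nbl1, a secreted antagonist with 0 counts against 2974, at least 1298-fold lower, Zeb2, a Smad-binding repressor with 6 counts against 743, a ratio of 162 (74.1 to 443), Chrdl1, a chordin-like antagonist with 0 counts against 131, at least 57.2-fold lower, and Eng, a co-receptor of endothelial cells, at -5.28 ± 0.43 (edgeR adjusted p = 2.93e-13).

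**Figure D5:**
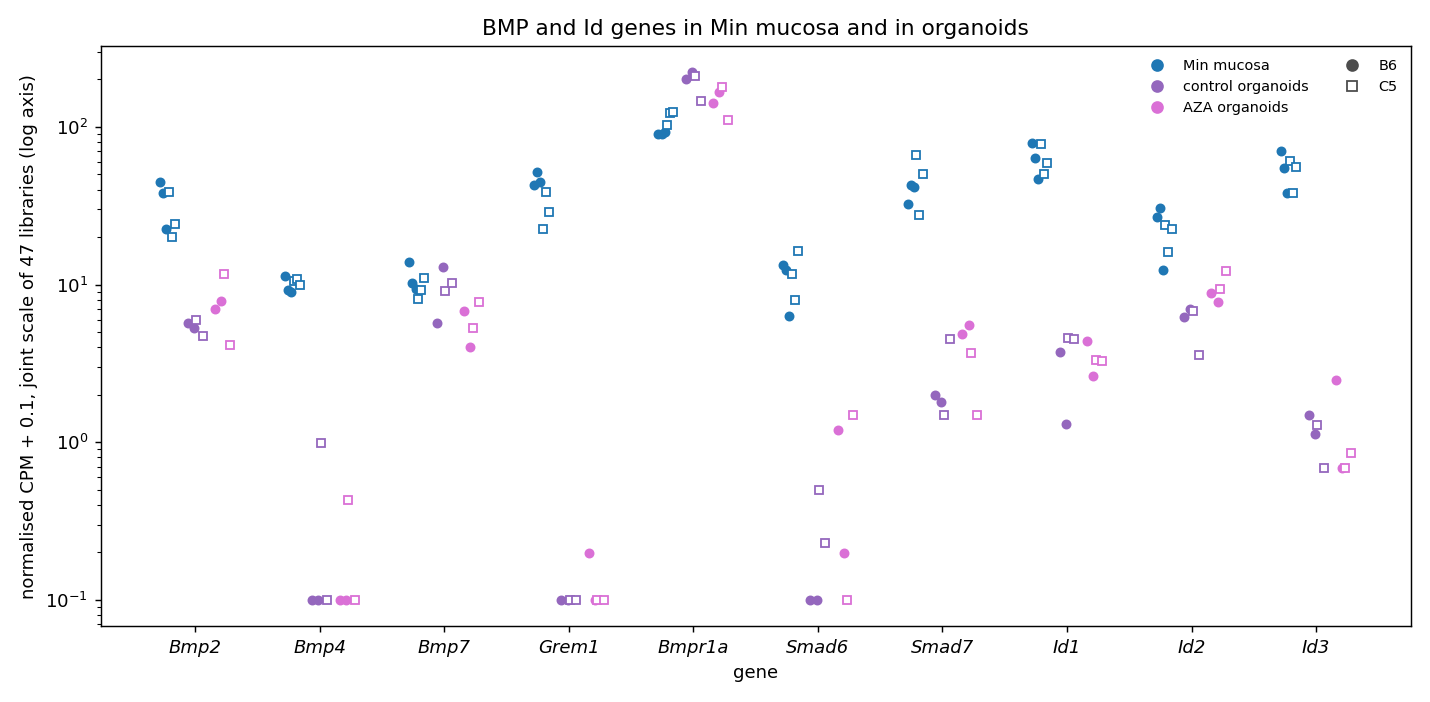
Normalised CPM + 0.1 on a log axis (vertical) for the 10 genes in the 6 Min mucosa, 4 control organoid and 4 AZA organoid libraries of B6 (filled circles) and C5 (open squares), on the joint scale. Bmpr1a lies higher in control organoids than in mucosa, Bmp7 overlaps, and points at the bottom edge are libraries with 0 counts of Bmp4, Grem1 or Smad6.

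None of the 8 genes that could be tested in organoids passed the test after AZA. CPM values in the AZA comparisons are on the organoids' own scale, not on the joint scale used against mucosa. In the mean of B6 and C5 no call was made by edgeR or DESeq2, beside 28.5% of all 13395 genes by edgeR, and 2 had an unadjusted p under 0.05. Those were Id2, at 10.8 and 11.8 CPM in B6 controls and 15.1 and 13.5 CPM after AZA, and 11.5 and 5.98 CPM in C5 controls and 16.1 and 21.9 CPM after AZA (0.72 ± 0.31, edgeR adjusted p = 0.0964), and Bmpr1a. Every AZA library was above every control library of its strain for Id2, with 2 libraries on each side. How many of all genes separate in this way was not counted. Bmpr1a read 353 and 377 CPM in B6 controls and 245 and 295 CPM after AZA, and 357 and 251 CPM in C5 controls against 314 and 201 CPM (-0.34 ± 0.15, edgeR adjusted p = 0.121). It was called without C5 AZA replicate 3 (-0.52, adjusted p = 0.00453) or C5 control replicate 4 (-0.46, adjusted p = 0.0172).

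The other 6 differences were 0.53 ± 0.35 for Bmp2, -0.63 ± 0.33 for Bmp7, 1.57 ± 0.88 for Smad6, 0.63 ± 0.53 for Smad7, 0.04 ± 0.45 for Id1 and -0.01 ± 0.46 for Id3. Their 95% intervals were wide, -0.99 to 0.97 for Id3 and -0.91 to 0.99 for Id1, so changes within these bounds remain possible. Smad6 had 0 and 0 counts in B6 controls and 11 and 1 after AZA, and 4 and 2 counts in C5 controls and 0 and 11 after AZA, so its counts came mainly from 1 AZA library of each strain. Bmp4 had 9 counts in 1 control and 4 in 1 AZA library, both C5, and Grem1 had a single count in 1 AZA library, and neither could be tested. In B6 alone none of the 8 was called or had an unadjusted p under 0.05 (16.1% of all genes called), and in C5 alone none was called and Id2 had one (1.10 ± 0.44, adjusted p = 0.112; 14.6%), by edgeR, and none was called by DESeq2. No gene of the 8 was called between C5 and B6 organoids (0.396% of all genes called) or in the AZA effect between the strains (0.00%) by edgeR or DESeq2, and none had an unadjusted p under 0.05 in either.

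Some other genes of the pathway passed the test after AZA. Of 24 tested 4 were higher and 3 lower (Bmp3, Smad5 and Smurf2), a share near the 28.5% of all genes called in either direction. The median over the 24 was 0.49 beside 0.04 over all genes. Bambi, a pseudoreceptor that blocks BMP and TGF-beta receptors, rose from 1.54 ± 1.17 to 13 ± 7.72 CPM (SD, n = 4; 3.03 ± 0.64, edgeR adjusted p = 0.00233). Acvr1, a type I receptor, rose from 4.21 ± 1.36 to 15.3 ± 6.12 CPM (1.78 ± 0.41, edgeR adjusted p = 0.00485), and the ligand gene Bmp8b from 0.990 ± 0.961 to 6.29 ± 6.03 CPM (2.70 ± 0.82, edgeR adjusted p = 0.0222). Acvr2a rose by 0.39 ± 0.13. In the same libraries Id1, Id2 and Id3 differed by 0.04, 0.72 and -0.01, none of them called. Marker lists moved with AZA too. Wnt targets summed to 64.2 to 145 CPM after AZA and 199.9 to 261 CPM in controls (1 of 5 lower), enteric nerve and glia genes to 15.6 to 22.6 against 3.84 to 6.35 CPM (1 of 3 higher) and immune genes to 4.84 to 15.1 against 2.03 to 4.38 CPM (1 of 3 higher). Of 6 epithelial genes 3 were higher and 2 lower (5416 to 5995 against 4814 to 5010 CPM). Their part in the AZA differences was not tested.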

How the data were processed

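Total RNA was depleted of ribosomal RNA with RiboMinus and sequenced as single-end reads on a Genome Analyser IIx, per the labels' protocols. The authors deposited raw read counts per gene symbol in a table for all 47 libraries. Per the submitters' processing notes these were made with BWA, HTSeq and build mm10. Versions, gene annotation and strand setting are not given in the sources used here. The 5 HTSeq summary rows (40.7 to 53.9% of a tissue library's total, 46.4 to 63.5% in organoids) were left out. All columns matched a sample's label. Duplicates were looked for in the 43 pairs of libraries of one group, which all differed beyond sampling noise (chi-square at least 7.62 times its degrees of freedom).

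Counts were fitted with edgeR 4.0.16 (limma 3.58.1, R 4.3.3) after filterByExpr by group (minimum count 10, total 15) and TMM, with 1 mean per group, separately for tissue (13657 genes), organoids (13395 genes) and all libraries (15202 genes). Normalised CPM carries the SD, and log2 changes (prior count 2) the SE, computed as the change over the square root of F. A gene was called at an adjusted p under 0.05 (Benjamini-Hochberg over all genes tested, quasi-likelihood test). A group with 0 counts was set to a floor of 3 counts over the group, and intervals are 95%. Of the 10 genes 10 passed the filter in tissue and 8 in organoids. The 19 comparisons are those of adenoma, Min and wild-type mucosa, backgrounds, AZA and organoids, each tested as a contrast. The test was tried on simulated data. DESeq2 1.42.0, DESeq2's size factors, no filter, only the groups compared, leaving out each library and replicate blocks were alternatives.

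Same-numbered adenoma and Min mucosa libraries of a background deviated together from their group means in 12 of 12 pairs (correlation 0.13 to 0.51), so their numbers were taken as pairs, a reading from the data. Same-numbered pairs with wild-type mucosa reached 0.31, so the pairing stays an assumption. The 10 genes, the gene lists and the comparisons were chosen with earlier results of these data known. Besides the 10, the text names the 4 largest rises and 4 largest falls among called pathway genes in adenoma, the 3 largest in AZA and in organoids, and all genes of a direction where 5 or fewer were called. Promoter windows are from RefSeq, and positions and exon lengths from GENCODE M21, both mm10. Of the pathway list, 1 gene is not reported here.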

Additional observations from a re-analysis of the deposited data

How the results depend on the processing

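No alternative reversed the direction of a called gene. With the replicate block within each background (adenoma and Min mucosa alone), the number of the 10 genes called in adenoma went from 4 to 8 in the mean of 4 backgrounds and from 1 to 4 in C5F1 (over all genes from 6172 to 7031 and from 2801 to 3904), and that of the differences from B6 went from 0 to 1 for C5 and from 0 to 3 for B6xPWD. With only the groups compared in the fit, C5F1 adenoma had 4 calls and AZA in B6 had 1 in place of 0. For B6xPWD against B6, 2 genes were called in place of 1 by DESeq2 and by edgeR with DESeq2's size factors. Without the filter, AZA had 1 call in the mean in place of 0. In organoids control and AZA libraries share only a number (correlation 0.01 in B6 and 0.05 in C5); the replicate block there called Bmpr1a, 1 gene in place of 0, in the mean (-0.35, edgeR adjusted p = 0.0101) and in B6 (-0.44, adjusted p = 0.0317). The cause of these shifts was not tested.

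Leaving out single libraries gave 4 to 6 calls for the mean of 4 backgrounds, 2 to 4 for B6 (5 with all libraries), 0 to 1 for B6xPWD adenoma, 0 to 2 for PWD against B6, 0 to 3 for C5 against B6, 1 to 3 for C5F1 against B6, 1 to 3 for B6xPWD against B6, 0 to 1 for the B6xPWD difference and 0 to 1 for AZA in the mean. The others kept their number: 1 in C5F1 adenoma, 9 for organoids against mucosa and 0 elsewhere. Id2 missed the threshold with only the groups compared in B6 adenoma (adjusted p = 0.0688) and in C5 against B6 (0.0827), and Bmpr1a did in C5 against B6 without the filter (0.0627).

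The background shares also moved. With only the groups compared, calls over all genes went from 2241 to 699 for B6xPWD adenoma, from 2560 to 1034 for PWD against B6 and from 1949 to 951 for AZA in C5. With the block, C5 adenoma went from 378 to 733, the differences from 15 to 403 (C5), 0 to 41 (C5F1) and 86 to 518 (B6xPWD), and the AZA difference from 0 to 21. DESeq2 called 148 for the C5 difference, 244 for the B6xPWD difference, 23 in place of 1 for Min mucosa against wild type, and 106 in place of 53 for C5 against B6 organoids. With only the groups compared the differences had 94 (C5), 19 (C5F1) and 6 (B6xPWD) calls and Min mucosa against wild type 4. Without the filter they were 7 for the C5 difference, 3 for Min mucosa against wild type, 184 for C5 against B6 organoids and 34 for the AZA difference. Counts of Bmp4, Grem1 and Smad6 in organoids, from 0 to 11 per library, set the limit there.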

Other observations

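Over the 13 tissue group means, Pearson's correlation of mean log2 CPM among the 10 genes was highest for pairs with an Id gene. It was 0.84 for Id1 and Id3, 0.74 for Id1 and Id2 and 0.72 for Id2 and Id3, and 0.77 for Bmp7 and Id2. These are descriptions over 13 groups that share strain, tissue and library depth, and carry no test.

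The genes whose group means ran most like those of a gene described were found over all tested genes. For Bmp7 they were Minpp1 and Bcap29 (r = 0.96 each), for Grem1 Kirrel (0.97) and the smooth muscle gene Cald1 (0.97), and for Bmp4 Rtn4rl1 (0.94) and the collagen gene Col5a1 (0.93). For Id1 they were Tlcd1 and Nop10 (0.96 each), for Id2 Tbl3 (0.93) and Atxn10 (0.91), and for Id3 Cdk9 (0.90) and Pola2 (0.89). For Bmp2 they were Pde1a (0.93) and Tro (0.91), for Bmpr1a Dpp8 and Tbc1d8b (0.90 each), for Smad6 Fam69b (0.91) and Nyx (0.82), and for Smad7 Manba (0.93) and Slc6a9 (0.92). They are the 2 highest of the correlations with all tested genes, over 13 points.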
